A study of Mus musculus with 6 samples.

Results

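A set of 10 genes of triglyceride assembly, storage and breakdown was followed in mouse liver. When celastrol was given with ANIT 4 of them fell, against 20.6% of all tested genes. Cidec, among the 4, was tested only for its level under ANIT alone. The 10 genes were named by symbol (Plin2, Plin4, Plin5, Cidec, Cideb, Dgat1, Dgat2, Lpin1, Lpin2 and Pnpla2), and all 10 were found among the 18253 symbols listed in at least 1 library. The libraries came from livers of C57BL/6 mice labelled postnatal day 21. All 6 were from mice that had received ANIT (alpha-naphthylisothiocyanate), which damages the bile duct lining and serves as a rodent model of cholestasis. In 3 of them the mice had received ANIT without celastrol, and in 3 they had received ANIT plus celastrol, a plant triterpenoid. Treatment lasted 5 days in both groups. No untreated liver was analysed here, so each value compares celastrol-treated with ANIT-only liver and neither with normal liver. Nothing in the labels ties each library to its own animal, so the p-values reflect the spread among these samples only, which may be technical.

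Hepatocytes store surplus fatty acids as triglyceride in lipid droplets, which bud from the endoplasmic reticulum and carry a protein coat. Lipins remove the phosphate from phosphatidic acid to give diacylglycerol, and the DGAT enzymes add the last acyl chain. Perilipins cover the droplet and limit access of lipases, CIDE proteins control droplet fusion and the loading of triglyceride onto lipoproteins, and Pnpla2 (ATGL) starts lipolysis.

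The annotated upstream sequences are shown for 3 of the genes that fell (Plin2, Cidec and Lpin2) and for Lpin1, which did not pass the test. They come from RefSeq (GRCm38.p6, the same chromosome coordinates as mm10), where 8 of the 10 genes had an entry, with 12 starts in all. Each run is the 250 bases before an annotated start, read 5′ to 3′ on the gene's strand. Capitals mark matches to any of 7 short motifs searched on both strands. The motifs were AGGTCA (the nuclear receptor half-site), AGGTCANAGGTCA (its direct repeat, the form bound by PPAR with RXR), TGACNNNGC (the antioxidant response element core), CACGTG (an E-box), TCACNCCAC (a sterol response element core), TTGCNNAA (a C/EBP-type palindrome) and TATAAA. Letters of one motif can lie within another, as AGGTCA does in its direct repeat.
Plin2 (chr4:86670060-86670309, minus strand): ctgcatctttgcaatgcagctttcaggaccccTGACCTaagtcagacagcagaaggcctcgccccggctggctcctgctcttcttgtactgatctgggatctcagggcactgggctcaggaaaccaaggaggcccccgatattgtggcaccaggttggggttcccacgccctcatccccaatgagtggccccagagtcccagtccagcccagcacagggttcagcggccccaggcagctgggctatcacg
Cidec, upstream start (chr6:113435761-113436010, minus strand): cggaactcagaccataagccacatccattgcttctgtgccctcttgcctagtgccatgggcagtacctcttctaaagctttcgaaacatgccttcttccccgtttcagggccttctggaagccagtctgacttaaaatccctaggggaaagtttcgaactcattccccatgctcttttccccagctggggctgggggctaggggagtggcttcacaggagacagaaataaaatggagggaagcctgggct
Cidec, downstream start (chr6:113434765-113435014, minus strand): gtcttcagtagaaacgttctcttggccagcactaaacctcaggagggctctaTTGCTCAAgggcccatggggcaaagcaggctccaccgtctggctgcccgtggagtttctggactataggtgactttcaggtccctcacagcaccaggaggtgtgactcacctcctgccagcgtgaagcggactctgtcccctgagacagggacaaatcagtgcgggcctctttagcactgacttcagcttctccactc
Lpin2, most upstream start (chr17:71183282-71183531, plus strand): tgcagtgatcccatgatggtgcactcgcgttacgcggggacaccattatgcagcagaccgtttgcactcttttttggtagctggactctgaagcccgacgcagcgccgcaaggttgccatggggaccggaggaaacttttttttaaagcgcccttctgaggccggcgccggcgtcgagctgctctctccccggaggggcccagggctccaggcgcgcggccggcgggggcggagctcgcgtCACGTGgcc
Lpin1 (chr12:16610967-16611216, minus strand): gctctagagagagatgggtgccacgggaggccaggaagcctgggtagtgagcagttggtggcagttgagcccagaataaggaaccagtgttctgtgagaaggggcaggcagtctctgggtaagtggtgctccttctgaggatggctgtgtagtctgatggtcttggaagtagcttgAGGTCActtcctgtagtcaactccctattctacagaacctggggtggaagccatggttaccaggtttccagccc

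No motif was found for all 4 genes that fell. AGGTCA stood in the window of Plin2 (bases 218 to 213 before the start, on the opposite strand), in the upstream window of Plin5 and in that of Lpin1, and 14.0% of 32817 upstream windows of this length hold it. The direct repeat, which 0.0335% of windows hold, was in none of the 12 member windows, nor was the sterol element core (1.05% of windows). CACGTG lay 9 to 4 bases before the Lpin2 start and in 6.02% of all windows. TTGCNNAA (9.57% of windows) matched the window of the downstream Cidec start and that of the most downstream Lpin2 start. TATAAA (12.4% of windows) and TGACNNNGC (10.2% of windows) were matched in the Cideb window alone among the 12. The upstream Cidec window held no match. A match describes letters in a window and not a site that is bound.

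The level of each gene was deposited as FPKM, which is scaled to gene length and library size, so that levels of different genes can be set side by side. A gene was called changed when its adjusted p (limma on log2(FPKM + 1), over the 10593 genes that reached 1 FPKM in 3 or more libraries) was under 0.05. All 10 members passed this abundance filter, Cidec only through its ANIT libraries, so the direction of its change, counted below, was set by the filter. Of the 10, 4 fell and 0 rose, whereas 20.6% of all tested genes fell, 4.41% rose and 25.0% changed either way. Their median log2 fold change was -0.67, and that of all tested genes was -0.17. Scaling by median ratios moved the latter to -0.022, rescaling to TPM moved it to -0.30, and 4 members fell under the first (11.0% of all tested genes) and 6 under the second (36.0% of all tested genes). The count was 3 without ANIT replicate 2 (9.53% of all tested genes lower) or celastrol replicate 1 (8.58%), and 6 without celastrol replicate 2 (31.4%). The groups did not overlap for 5 members, all lower with celastrol, against 36.6% of all tested genes lower without overlap and 44.9% without overlap in either direction. Cidec is among the 5, and the filter set its lack of overlap as well.

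The libraries were alike in depth. The spacing of their lowest values put them at between 18940000 and 19840000 reads. Only a limited range of depths was searched. A depth below that range, of which these are whole multiples, would fit the same spacing, so the true depth may be lower. Celastrol replicate 2 stood apart in that the 10 most abundant genes took 20.7% of its FPKM sum, against 33.2% and 31.5% in celastrol replicates 1 and 3 and 20.3% to 21.9% with ANIT. For 8 of the 10 members it was also the highest of the celastrol libraries, the exceptions being Plin2 and Lpin1. All 7 hepatocyte markers were listed in every library. Their summed level was 41516 to 53813 FPKM under ANIT alone against 16362 to 23739 FPKM under ANIT plus celastrol, and without albumin (Alb) the ranges were 11984 to 15157 and 11021 to 13688 FPKM. The sum without Alb joins opposite moves. Serpina1a was lower with celastrol without overlap (2719 to 3506 against 2002 to 2366 FPKM). Cyp2e1 was higher without overlap (573 to 843 against 1531 to 2791 FPKM), and the rest overlapped. These 2 were named after their values were seen. The part of the albumin fall in the member values was not tested. In bulk liver fewer cells of a type and less RNA per cell cannot be told apart.

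**Figure D1:**
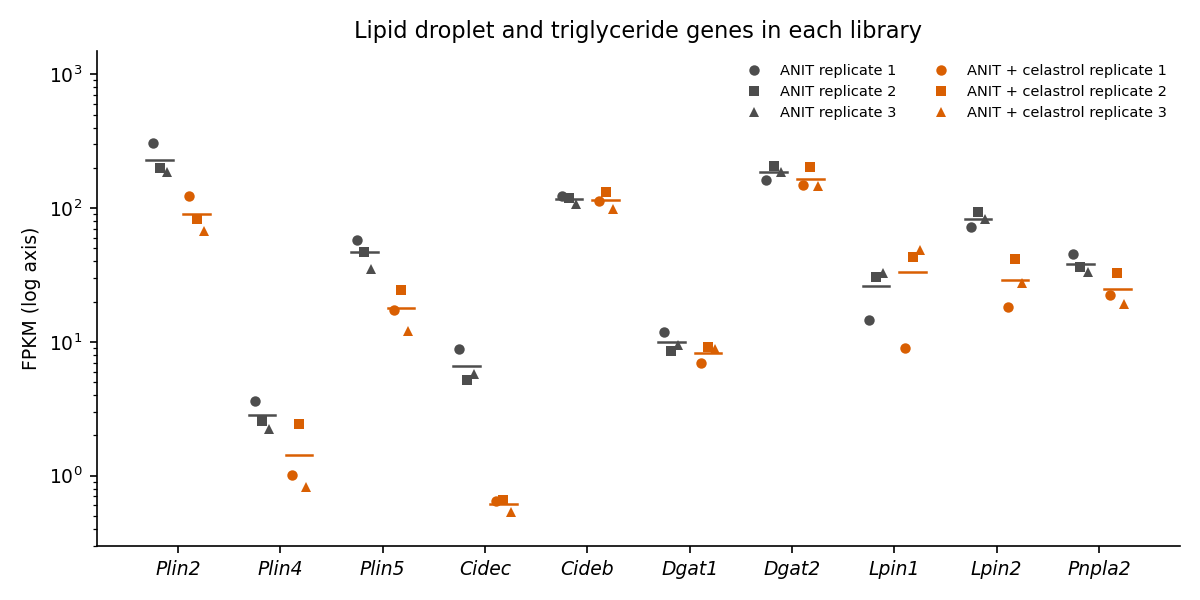
FPKM of the 10 genes in each library on a log axis, ANIT in grey and ANIT plus celastrol in orange, with the marker shape giving the replicate and the line the group mean. Cidec drops from between 5.21 and 8.87 FPKM to between 0.54 and 0.66 FPKM, the groups of Plin2, Plin5, Lpin2 and Pnpla2 are apart, and those of Cideb, Dgat1, Dgat2, Lpin1 and Plin4 overlap.

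Transcripts of the perilipins Plin2 and Plin5 fell. Plin2 encodes the perilipin that coats most hepatocyte droplets and lies on chr4:86648386-86670060 (mm10). It measured 306, 198 and 185 FPKM in ANIT replicates 1, 2 and 3 and 122, 82.5 and 67.8 FPKM in celastrol replicates 1, 2 and 3. Every celastrol library was below every ANIT library. The means were 229 ± 66.2 and 90.8 ± 28.2 FPKM (SD, n = 3 each), a 2.53-fold lower level and a log2 change of -1.33 (SE 0.27; adjusted p = 0.013 by limma). Plin2 held its call with any 1 library left out (adjusted p from 0.017 to 0.039), and median-ratio scaling gave -1.15 (adjusted p = 0.031).

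Plin5 encodes the perilipin of oxidative tissues, which ties droplets to mitochondria, and lies on chr17:56111601-56117596. Its levels were 57.7, 47.1 and 35.0 FPKM under ANIT alone against 17.2, 24.5 and 12.1 FPKM under ANIT plus celastrol. The ranges did not meet, and celastrol replicate 2 came closest to ANIT. Mean levels were 46.6 ± 11.3 and 17.9 ± 6.23 FPKM (SD, n = 3 each), a log2 change of -1.36 (SE 0.27; adjusted p = 0.014 by limma). Plin5 no longer passed without ANIT replicate 2 (adjusted p = 0.054) or celastrol replicate 1 (adjusted p = 0.056).

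Plin4, a perilipin most abundant in fat tissue, was the lowest of the listed perilipins (Plin1 was listed in no library). It is the neighbour of Plin5, with 1797 bases between the 2 genes on chromosome 17 (chr17:56100591-56109803). Its levels were 3.63, 2.58 and 2.25 FPKM under ANIT alone against 1.01, 2.42 and 0.82 FPKM under ANIT plus celastrol. Celastrol replicate 2 lay within the ANIT range and the other celastrol libraries below it. Plin4 did not pass (log2 fold change -0.70, SE 0.26, 95% interval -1.30 to -0.10, adjusted p = 0.084 by limma). It passed without celastrol replicate 2 (log2 fold change -0.98, adjusted p = 0.0079) and when rescaled to TPM (-0.93, adjusted p = 0.045).

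Perilipin transcripts, with Plin3 (TIP47, a widely expressed droplet and endosome protein) included, summed to 312 ± 79.6 FPKM under ANIT alone against 129 ± 29.9 FPKM under ANIT plus celastrol (SD, n = 3 each). Their make-up overlapped between the groups. Plin2 made up 71.2% to 75.8% of the sum with ANIT and 63.7% to 76.8% with celastrol, and Plin5 13.7% to 16.9% and 10.8% to 18.9%.

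Cidec, also called Fsp27, drives the fusion of droplets into larger ones and is low in lean liver. It lies on chr6:113424634-113435760. It measured 8.87, 5.21 and 5.71 FPKM under ANIT alone against 0.65, 0.66 and 0.54 FPKM under ANIT plus celastrol. The 3 celastrol values lay close together and far below the ANIT range. The mean fell 10.7-fold (6.60 ± 1.98 against 0.617 ± 0.0666 FPKM, SD, n = 3 each). The log2 change was -2.20 (SE 0.17; adjusted p = 0.00049 by limma), the lowest of the 10 members, and since the celastrol values lie below 1 FPKM this scale understates it. With a pseudocount of 0.1 it was -3.19. At the estimated depth and an exon length of 1856 bases in GENCODE, the celastrol values correspond to about 20 to 24 reads per library and the ANIT values to about 186 to 312. The Cidec call held with any 1 library left out (adjusted p from 0.00043 to 0.0042). Cidec was tested only for its ANIT level, so it had to differ, and its p-values are no independent support.

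Cideb, the liver member of the family, which loads triglyceride onto very-low-density lipoprotein (VLDL), did not pass. Its levels were 123, 119 and 108 FPKM under ANIT alone against 112, 131 and 98.4 FPKM under ANIT plus celastrol. The groups overlapped, and the highest and the lowest value were both from celastrol libraries. The log2 fold change was -0.042 (95% interval -0.38 to 0.30, adjusted p = 0.85 by limma), and its sign turned under median-ratio scaling (0.14). Cideb (chr14:55754050-55758458) shares 1136 of its 1488 exonic bases in GENCODE with Nop9 on the opposite strand. Whether reads were counted by strand is not given in the sources used here, and the reads of the pair may be mixed. Nop9 was listed at 6.38 to 7.88 FPKM. Cidec made up 6.70%, 4.20% and 5.02% of the summed Cidec and Cideb level in the 3 ANIT libraries, against 0.575%, 0.501% and 0.546% in the celastrol libraries.

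The enzymes of the last step of triglyceride synthesis did not pass. Dgat2, the DGAT that mainly uses newly made fatty acids, measured 162, 206 and 186 FPKM under ANIT alone against 148, 203 and 147 FPKM under ANIT plus celastrol. Its groups overlapped, with a log2 fold change of -0.16 (95% interval -0.57 to 0.24, adjusted p = 0.52 by limma) and of 0.019 under median-ratio scaling. Dgat1, an unrelated enzyme for the same reaction, measured 11.8, 8.48 and 9.42 FPKM under ANIT alone against 6.98, 9.19 and 8.79 FPKM under ANIT plus celastrol. Its groups overlapped too, with a log2 fold change of -0.22 (95% interval -0.56 to 0.12, adjusted p = 0.29 by limma) and of 0.0077 after quantile normalization. These intervals exclude a fall as large as the estimate for Plin2, and a smaller fall remains within them. In every library Dgat2 was the more abundant of the 2, between 13.7 and 24.3 times as high as Dgat1. Dgat2 lies on chr7:99153658-99182719 and Dgat1 on chr15:76502015-76511953.

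Of the lipins, the phosphatases of the step before, Lpin2 fell and Lpin1 did not pass. The difference between their changes was not tested. Lpin2, an abundant hepatic lipin, lies on chr17:71182560-71249817. It measured 72.8, 92.9 and 83.3 FPKM under ANIT alone against 18.2, 41.9 and 27.5 FPKM under ANIT plus celastrol. All 3 celastrol libraries were below the ANIT range. The mean fell 2.84-fold (83.0 ± 10.1 against 29.2 ± 11.9 FPKM, SD, n = 3 each), a log2 change of -1.55 (SE 0.28; adjusted p = 0.0093 by limma). Leaving out any 1 library kept the Lpin2 call (adjusted p from 0.0020 to 0.042).

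Lpin1, which besides its enzyme activity assists PPAR-alpha and PGC-1alpha in the nucleus, had the widest error of the 10 members on the log2 scale. It lies on chr12:16535669-16610966. Its levels were 14.6, 30.5 and 33.0 FPKM under ANIT alone against 8.95, 43.1 and 48.5 FPKM under ANIT plus celastrol. In each group the library labelled replicate 1 was far below the other 2, and the celastrol libraries held both the lowest and the highest value. The log2 fold change was 0.13 (SE 0.69, 95% interval -1.59 to 1.85, adjusted p = 0.91 by limma). Its sign turned without ANIT replicate 1 (-0.23), celastrol replicate 2 (-0.20) or celastrol replicate 3 (-0.28), and it was 0.87 (adjusted p = 0.16) without celastrol replicate 1. At this spread neither a fall like that of Lpin2 nor a rise of equal size was distinguishable from no change.

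Lpin1 made up 16.2%, 24.2% and 27.8% of the summed level of Lpin1, Lpin2 and Lpin3 in the 3 ANIT libraries, against 31.0%, 49.8% and 62.4% in the celastrol libraries. This share, which does not depend on the scaling between libraries, was above the ANIT range in all 3 celastrol libraries. Lpin2 makes up most of the ANIT sum, so its fall raises the share, which is no separate result for Lpin1.

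**Figure D2:**
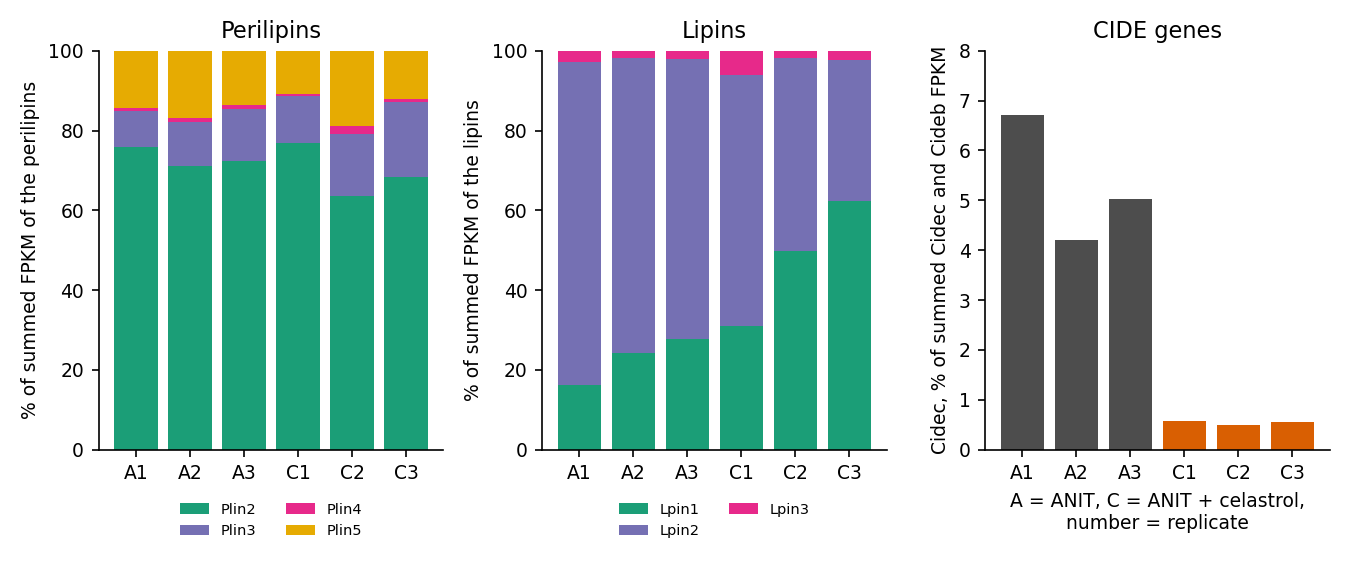
Share of each gene in the summed FPKM of the perilipins (left) and lipins (middle), and share of Cidec in that of Cidec and Cideb (right), for each library (A, ANIT; C, ANIT plus celastrol; number, replicate). The perilipin shares overlap between the groups, the Lpin1 share is 16.2% to 27.8% with ANIT and 31.0% to 62.4% with celastrol, and the Cidec share is 4.20% to 6.70% and 0.501% to 0.575%.

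Pnpla2, the lipase that removes the first acyl chain of stored triglyceride, measured 45.1, 36.2 and 33.3 FPKM under ANIT alone against 22.6, 32.6 and 19.1 FPKM under ANIT plus celastrol. It lies on chr7:141455198-141460743. The groups did not overlap, but celastrol replicate 2 was within 1 FPKM of the lowest ANIT library. Pnpla2 did not pass (log2 fold change -0.63, SE 0.21, 95% interval -1.11 to -0.15, adjusted p = 0.060 by limma). It passed without celastrol replicate 2 (-0.84, adjusted p = 0.0088), when rescaled to TPM (-0.76, adjusted p = 0.024) and with a stricter abundance filter of a mean of 5 FPKM (adjusted p = 0.048).

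**Figure D3:**
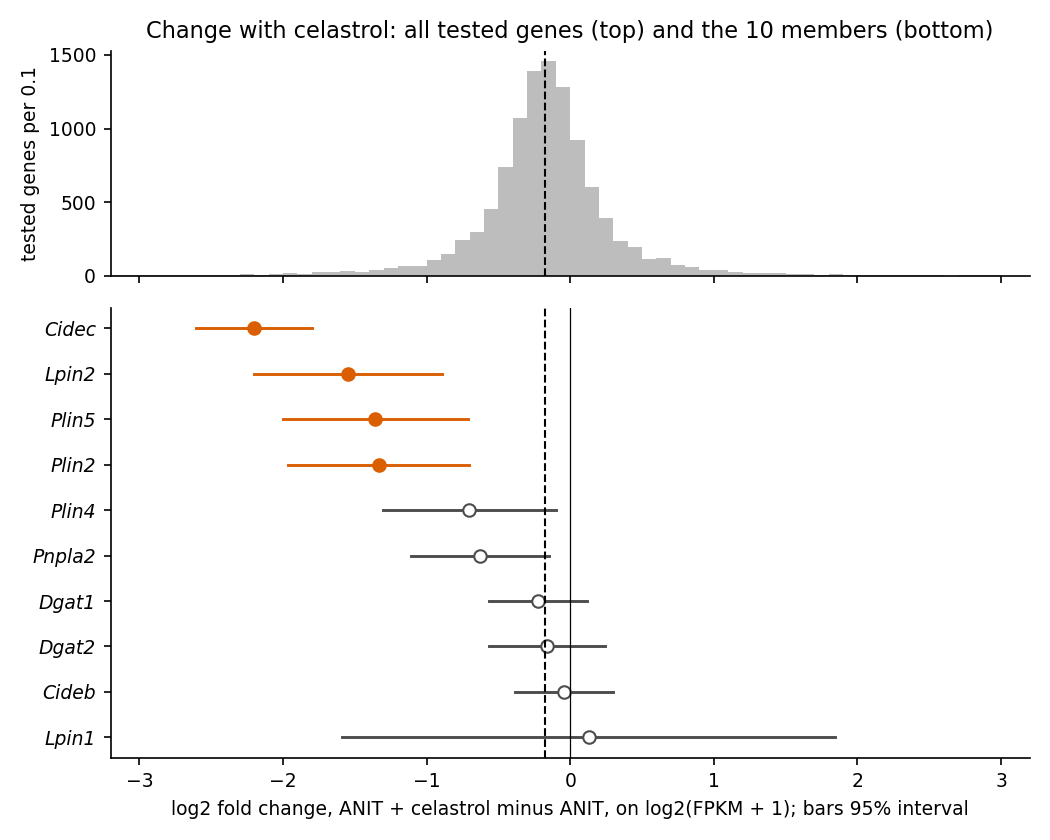
Log2 fold changes on the log2(FPKM + 1) scale, as a histogram of all tested genes (top, 23 genes beyond 3.2 in either direction not drawn) and for each member with its 95% interval (bottom; filled orange, adjusted p under 0.05). The dashed line is the median of all tested genes, -0.17, and Cidec, Lpin2, Plin5 and Plin2 lie between -2.20 and -1.33.

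The order of the genes by level differed between the groups. With ANIT it ran Plin2 (229 FPKM), Dgat2 (185), Cideb (117), Lpin2 (83.0), Plin5 (46.6), Pnpla2 (38.2), Lpin1 (26.0), Dgat1 (9.90), Cidec (6.60) and Plin4 (2.82), as mean FPKM. The ranges of Plin2 and Dgat2, of Plin5 and Pnpla2, and of Dgat1 and Cidec overlapped, and those of the other neighbours did not. With celastrol Dgat2 (166 FPKM) and Cideb (114 FPKM) came before Plin2 (90.8 FPKM), and Cidec (0.617 FPKM) came last. There the ranges of Cideb and Plin2 and of the neighbours from Lpin1 through Lpin2 and Pnpla2 to Plin5 overlapped.

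**Figure D4:**
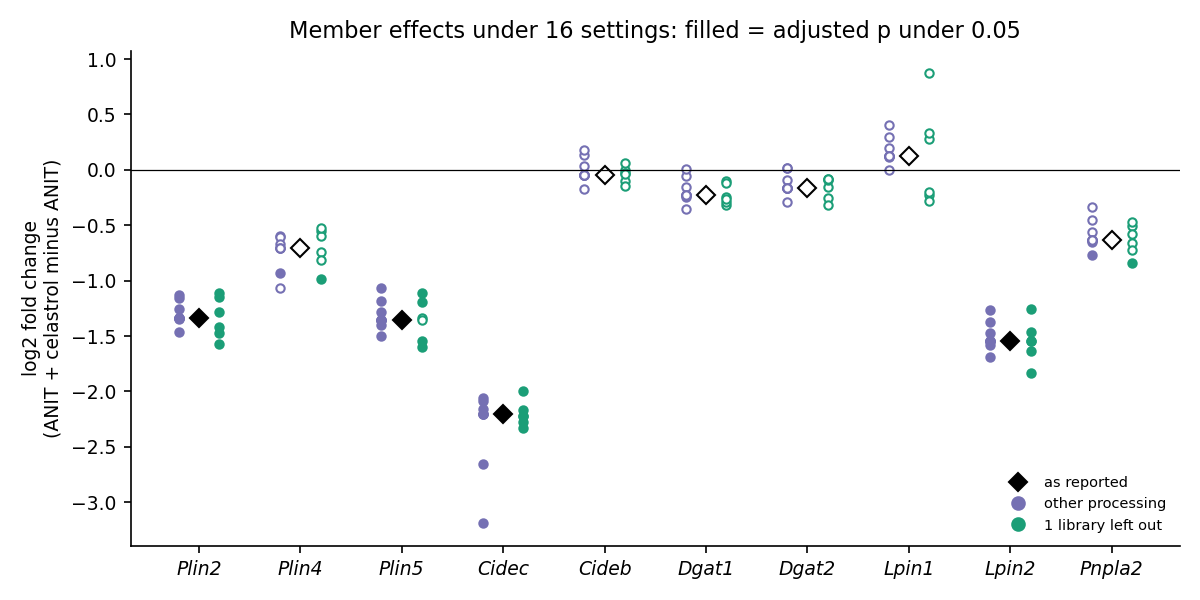
Log2 fold change of each gene under up to 16 settings: as reported (diamond), under other processing (purple) and with 1 library left out (green), with filled symbols for an adjusted p under 0.05. Lpin2 and Plin2 are filled under all 16, Cidec under the 15 in which it was tested, Plin5 is open in 2 settings, and the values of Cideb, Dgat1, Dgat2 and Lpin1 lie on both sides of 0.

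Other genes of triglyceride handling were drawn from a list of 39 covering acyl activation, glycerolipid acylation, droplet proteins, lipolysis and VLDL assembly. Of these 38 were listed and 33 passed the abundance filter, 17 fell and 0 rose, against 20.6% of all tested genes lower and 4.41% higher. Their median log2 fold change was -0.42, against -0.17 for all tested genes. The count was 8 without celastrol replicate 1 (8.58% of all tested genes lower) and 11 without ANIT replicate 1 (12.1%) or ANIT replicate 2 (9.53%). Of the 33 tested genes 1, Pnpla3, passed the abundance filter only through its ANIT libraries. Under median-ratio scaling 9 fell and 1 rose, against 11.0% of all tested genes lower and 793 of 10593 higher. The riser was Ldah, a droplet-associated hydrolase (log2 fold change 0.53, adjusted p = 0.029), named after its values were seen.

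Fatty acids are activated to acyl-CoA before they enter triglyceride, and 3 of the 4 tested acyl-CoA synthetases fell (20.6% of all tested genes). Acsl5 fell from 82.6 ± 4.25 to 47.6 ± 8.99 FPKM (SD, n = 3 each; log2 fold change -0.80, adjusted p = 0.012 by limma) and Acsl4 from 16.8 ± 1.37 to 9.02 ± 2.50 FPKM (log2 fold change -0.85, adjusted p = 0.013 by limma). The third was Acsl3, a synthetase found on growing droplets, and median-ratio scaling left Acsl3 (adjusted p = 0.059) and Acsl4 (adjusted p = 0.073) short of the threshold. Without celastrol replicate 1 neither passed (adjusted p of 0.060 and 0.056), and without ANIT replicate 2 Acsl3 did not (adjusted p = 0.058). Acsl1, the abundant hepatic form, measured 77.0 ± 17.5 and 84.6 ± 11.9 FPKM (SD, n = 3 each; adjusted p = 0.60 by limma).

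Of the 8 tested enzymes that build phosphatidic acid and diacylglycerol, 5 fell (20.6% of all tested genes). Gpam, the mitochondrial glycerol-3-phosphate acyltransferase of the first step, measured 29.6, 28.8 and 17.6 FPKM under ANIT alone against 8.69, 11.3 and 6.42 FPKM under ANIT plus celastrol. Its groups did not overlap, and its log2 change was -1.42 (SE 0.25; adjusted p = 0.0090 by limma). Agpat3, which acylates lysophosphatidic acid, fell from 97.9 ± 13.5 to 57.3 ± 3.50 FPKM (SD, n = 3 each; log2 fold change -0.75, adjusted p = 0.0094 by limma). Gpat3, listed under its older symbol Agpat9, Agpat5 and Lpin3 were the other 3, and the calls of Agpat5 and Lpin3 were lost under median-ratio scaling (adjusted p = 0.16 for each). With 1 library left out, Agpat5 did not pass in any case (adjusted p from 0.051 to 0.12), and Lpin3 passed only without celastrol replicate 2 (0.047, otherwise up to 0.096). Agpat2, the most abundant of these enzymes, measured 107.6 ± 12.1 and 94.2 ± 7.11 FPKM (SD, n = 3 each; adjusted p = 0.34 by limma).

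Among 10 tested droplet proteins 4 fell (20.6% of all tested genes). Hsd17b13, an abundant droplet protein of hepatocytes, measured 551, 498 and 577 FPKM under ANIT alone against 194, 250.5 and 249.8 FPKM under ANIT plus celastrol. Every celastrol value was below every ANIT value, with a log2 change of -1.23 (SE 0.16; adjusted p = 0.0024 by limma). Plin3 fell from 33.4 ± 2.86 to 19.2 ± 0.904 FPKM (SD, n = 3 each; log2 fold change -0.77, adjusted p = 0.0036 by limma). Hilpda, an inhibitor of Pnpla2, and Fitm2, which helps droplets bud, were the other 2, and Fitm2 no longer passed under median-ratio scaling (adjusted p = 0.091) or without any 1 library other than celastrol replicate 2 (up to 0.096).

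Of 8 tested genes of lipolysis 3 fell (20.6% of all tested genes), a count that includes Pnpla3. Pnpla3, a droplet protein related to Pnpla2, measured 1.96, 3.82 and 2.20 FPKM under ANIT alone against 0.07, 0.17 and 0.17 FPKM under ANIT plus celastrol. Its mean was 19.5-fold lower with celastrol, and its log2 fold change was -1.65 (adjusted p = 0.0017 by limma). Since the celastrol values of Pnpla3 are well below 1 FPKM this scale understates the change, which was -3.52 with a pseudocount of 0.1, and as a gene that was tested only for its ANIT level it had to differ. Lipa, the lysosomal acid lipase, fell from 84.9 ± 19.0 to 41.9 ± 6.11 FPKM (SD, n = 3 each; log2 fold change -0.99, adjusted p = 0.011 by limma), a call lost by a small margin without celastrol replicate 1 (adjusted p = 0.0502). Abhd5, the co-activator of Pnpla2, showed a log2 difference of -0.39 (adjusted p = 0.034 by limma), and of -0.22 (adjusted p = 0.29) under median-ratio scaling. Abhd5 did not pass without any 1 ANIT library or celastrol replicate 1 (adjusted p from 0.070 to 0.11). G0s2, an inhibitor of Pnpla2, measured 29.3, 21.5 and 14.7 FPKM under ANIT alone against 39.0, 23.6 and 32.9 FPKM under ANIT plus celastrol and did not pass (adjusted p = 0.18 by limma).

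For VLDL assembly, Mttp, which transfers triglyceride to nascent particles, and Tm6sf2, which assists their lipidation, fell by 0.48 and 0.42 on the log2 scale (limma adjusted p of 0.04995 and 0.021). Neither passed under median-ratio scaling (adjusted p = 0.21 for Mttp and 0.12 for Tm6sf2). With 1 library left out, Mttp passed only without ANIT replicate 3 (adjusted p = 0.040, otherwise up to 0.18) and Tm6sf2 only without celastrol replicate 2 (0.014, otherwise up to 0.092). Apob, the structural protein of the particle, measured 309 ± 30.9 and 273 ± 23.9 FPKM (SD, n = 3 each; adjusted p = 0.39 by limma).

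**Figure D5:**
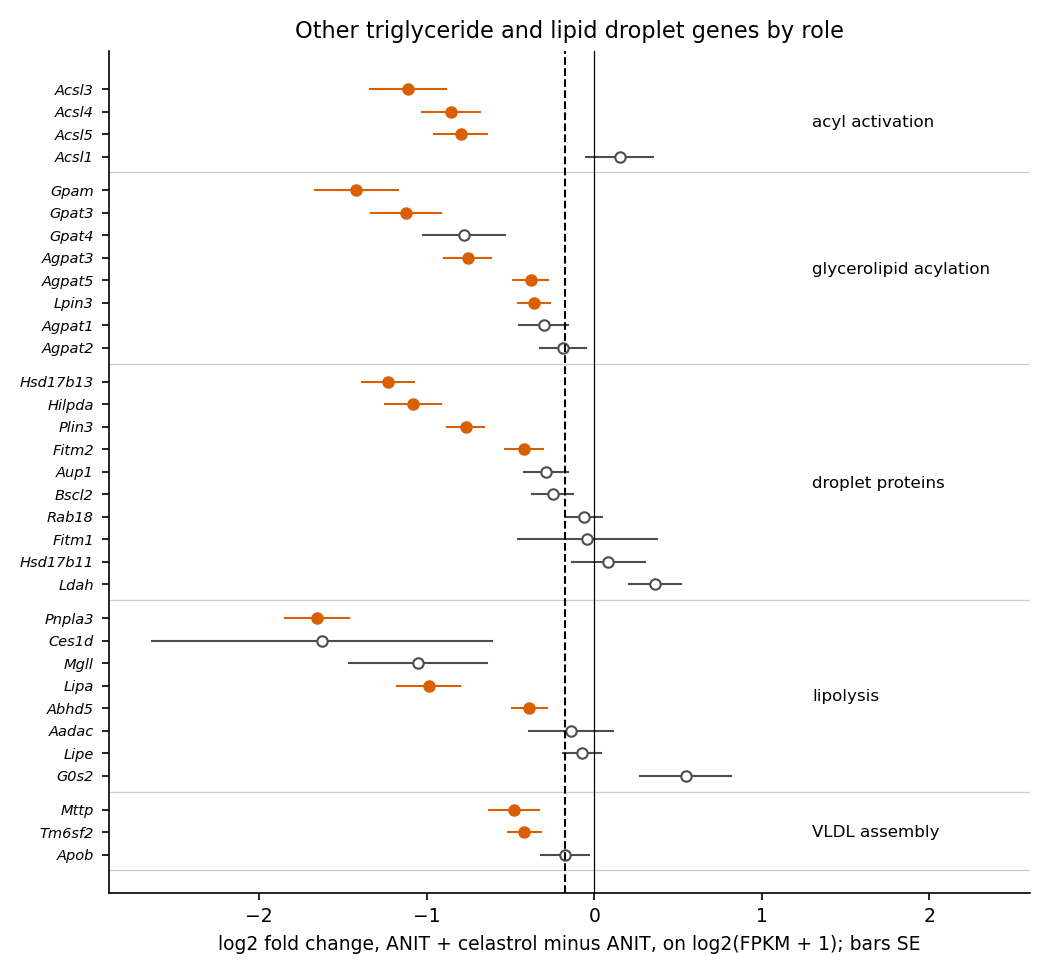
Log2 fold change on the log2(FPKM + 1) scale, with its SE, of the 33 tested genes of the list, grouped by role (filled orange, adjusted p under 0.05; dashed line, median of all tested genes). The 17 filled genes all lie below 0, Pnpla3 lowest at -1.65 among them, and Acsl1, Hsd17b11, Ldah and G0s2 lie above 0 without passing.

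Several members are also expressed outside hepatocytes, so markers of other cells were summed in each library. Of 7 adipocyte markers, Plin1 and Lep were listed in no library, and Adipoq was listed in 1, celastrol replicate 2, at 0.13 FPKM. The 5 listed markers summed to at most 5.05 FPKM in any library, of which Lipe, a lipase that is also in the list above, gave up to 4.96 FPKM. Macrophage markers (7 of 7 listed) summed to 89.6 to 251 FPKM under ANIT alone against 162 to 238 FPKM under ANIT plus celastrol, and the ranges overlapped. Stellate cell markers (7 of 7 listed), from cells that also store lipid droplets, summed to 5.59 to 12.0 FPKM and 3.22 to 11.8 FPKM, and the ranges overlapped. Neutrophil markers (7 of 7 listed) summed to 32.2 to 56.6 FPKM under ANIT alone against 67.3 to 92.0 FPKM under ANIT plus celastrol, without overlap. Endothelial markers (6 of 6 listed) summed to 23.0 to 42.9 and 35.5 to 64.9 FPKM and cholangiocyte markers (6 of 6 listed) to 38.9 to 46.2 and 16.2 to 44.7 FPKM. Most of the cholangiocyte sum was Spp1, and without it the sums were 5.79 to 6.40 FPKM under ANIT alone against 3.06 to 4.53 FPKM under ANIT plus celastrol, with no overlap. Krt19 (1.38 to 1.53 against 0.17 to 0.78 FPKM), Krt7 (0.43 to 0.78 against 0.06 to 0.42 FPKM) and Epcam (0.51 to 0.75 against 0.25 to 0.50 FPKM), keratins and an adhesion protein of bile duct cells, were lower with celastrol without overlap, and Cftr was at most 0.05 FPKM with ANIT and listed at 0 with celastrol. The other cholangiocyte markers, Sox9 (2.72 to 3.82 against 1.36 to 3.70 FPKM) and Spp1 (32.7 to 39.8 against 12.1 to 40.2 FPKM), overlapped. Of the endothelial markers, Stab2 (2.48 to 3.83 against 4.96 to 6.51 FPKM) and Kdr (0.95 to 2.14 against 2.41 to 4.92 FPKM) were higher with celastrol without overlap. The groups overlapped for the rest, Clec4g, Pecam1, Lyve1 and Oit3. These cholangiocyte and endothelial genes were named after their values were seen. The part of the RNA of any of these cells in the member values was not tested.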

How the data were processed

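Per the file headers, the authors deposited FPKM values, 1 table for each library. Reads were handled with HISAT2 and featureCounts on the mouse build mm10, per the submitters' processing notes, and of versions, annotation, strand setting and the step to FPKM the sources used here say nothing. The smallest listed value was 0.01, symbols not listed in a library were set to 0, and 2 names found repeatedly in a table were dropped. Depth was estimated from the steps between values of 0.1 to 1 FPKM in genes of 1 transcript and 400 to 2500 bases.

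Values were compared between the groups with limma 3.58.1 in R 4.3.3 on log2(FPKM + 1), with trended, robust empirical Bayes variance and Benjamini-Hochberg adjustment over all tested genes. FPKM of this kind carry no exact counts, so no count model was run. The fit was tested on simulated data. Gene coordinates and exon lengths came from GENCODE release M21 and upstream sequences from RefSeq GRCm38.p6. The named genes were all members, and in each role of the wider list the 2 with the smallest p that passed, with all others that passed given by symbol. Listed genes named without passing were picked after their values were seen. Members and lists were chosen with earlier results of these data known. Alternatives were another pseudocount, other filters and scalings, variance estimates that were not robust, a block for the replicate number, and each library left out.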

Additional observations from a re-analysis of the deposited data

How the results depend on the processing

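Between 3 and 6 members fell with 1 library left out (8.58% to 31.4% of all tested genes) and 6 when rescaled to TPM (36.0%). Under every other setting 4 fell, and no member rose in any. Of all tested genes 20.6% fell as reported and 11.0% under median-ratio scaling. The number was 952 of 10593 after quantile normalization and 1862 of 6446 with a mean floor of 5 FPKM. A mean floor of 5 FPKM left Plin4 and Cidec untested, and Pnpla2 was then among the 4. Of the wider list 10 genes changed under median-ratio scaling, 10 after quantile normalization and 8 to 20 with 1 library left out (8 without celastrol replicate 1, 11 without ANIT replicate 1 or ANIT replicate 2), against 17. Over all genes 2652 changed, 1963 under median-ratio scaling, 1825 after quantile normalization and 4202 when rescaled to TPM. With 1 library left out 1127 to 3841 changed (1127, 1269, 1584 and 1693 without celastrol replicate 1, ANIT replicate 2, ANIT replicate 1 and celastrol replicate 3). Signs turned for members that did not pass. The log2 fold change of Cideb was 0.14 under median-ratio scaling, 0.18 after quantile normalization, 0.031 after removal of the 20 most abundant genes, and -0.15 to 0.058 with 1 library left out (0.058 without celastrol replicate 3). That of Dgat1 was 0.0077 after quantile normalization, and that of Dgat2 was 0.019 under median-ratio scaling and 0.020 after quantile normalization. That of Lpin1 ran from -0.28 to 0.87 with 1 library left out. Outside the members, Agpat2 was 0.035 after quantile normalization, Apob 0.0047 under median-ratio scaling and 0.070 after quantile normalization, and Acsl1 -0.049 to 0.27 with 1 library left out. The cause was not tested. With the replicate number as a block 4 members, 17 genes of the list and 2585 genes overall changed, with 2 calls of the list lost, Mttp and Agpat5 (adjusted p of 0.085 and 0.055), and 2 gained, Mgll and Gpat4 (0.017 and 0.038). Libraries of the same number did not deviate together throughout (correlations of 0.15, 0.23 and -0.09). The value for number 2 was the highest of any pair, while ANIT replicate 1 correlated best with celastrol replicate 3 (0.18). With 3 libraries in each group, these values cannot decide whether the number pairs them. Genes below 1 FPKM, such as Cidec and Pnpla3 with celastrol, rest on few reads.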

Other observations

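Among the genes of lipolysis that did not pass, 2 differed widely between libraries of one group. Ces1d, a carboxylesterase that hydrolyses stored triglyceride for VLDL assembly, measured 42.7, 101 and 95.2 FPKM under ANIT alone against 5.59, 101.7 and 20.5 FPKM under ANIT plus celastrol. Celastrol replicate 2 lay above the highest ANIT value while the other celastrol libraries lay below the lowest (log2 fold change -1.63, adjusted p = 0.28 by limma). The log2 fold change of Ces1d was -2.66 (adjusted p = 0.022) without celastrol replicate 2 and -0.68 (adjusted p = 0.59) without celastrol replicate 1, and between these values without any 1 of the other libraries (adjusted p from 0.33 to 0.50). Mgll, the lipase of the last step of lipolysis, measured 38.4, 40.4 and 23.8 FPKM under ANIT alone against 15.8, 27.4 and 8.55 FPKM under ANIT plus celastrol, and again celastrol replicate 2 was the highest of its group and within the ANIT range (log2 fold change -1.05, adjusted p = 0.11 by limma). Mgll passed without celastrol replicate 2 (-1.44, adjusted p = 0.021) and with the replicate number as a block (adjusted p = 0.017). It was -0.65 (adjusted p = 0.20) without celastrol replicate 3.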
